A study of Bos taurus with 30 samples.

Results

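T, NK and B lymphocyte genes were followed through the bovine corpus luteum, the gland that forms from the ovulated follicle and secretes progesterone. The members were taken from a list of 56 entries for T cell, cytotoxic, NK and B lineage genes and genes of all white blood cells, and a gene was kept where the array's annotation gave its symbol to a probe set. There were 43 measured members among 9155 named genes, each represented by its brightest probe set over the 30 arrays. The 13 entries not analysed here were CD27, TBX21, GATA3, IL2RB, IL7R, CCR7, GZMA, GZMK, CD22, CD79B, PAX5, TNFRSF17 and IGJ, the last being an older symbol of JCHAIN, which was measured. The measured members comprised 11 T cell surface and receptor genes, 5 of costimulation and activation, 5 of signalling and transcription, 4 of cytokine and chemokine signalling, 9 of cytotoxic and NK cells, 5 of B and plasma cells and 4 pan-leukocyte genes.

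The tissue came from 30 Angus crossbred heifers, 5 in each of 6 groups. The heifers were at day 4 or at day 11 of the cycle, and their glands were collected at 0 h, with saline given, or at 4 h or 24 h after prostaglandin F2α (PGF2α), the hormone that ends the life of the gland. Day 4 is the young gland, which is known to resist that effect, and day 11 the mature gland, which responds to it. Each heifer gave whole luteal tissue for 1 Affymetrix bovine array, so that fewer cells of a type and less RNA per cell cannot be told apart.

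T cells recognise antigen through a receptor whose signalling chains are the CD3 proteins and CD247, with CD4 or CD8 as co-receptors. Cytotoxic T cells and NK cells kill targets with granules that hold perforin, granzymes and granulysin, while B cells mature into plasma cells that secrete antibody. Lymphocytes and macrophages are known to reside in the corpus luteum and to accumulate when it regresses.

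All values are log2 signals, on which a difference of 1 is a doubling. A difference was called where limma gave an adjusted p under 0.05, with Benjamini-Hochberg adjustment over all 24016 probe sets. Signals of different genes were not compared as levels, because probe sets differ in brightness. Without detection calls in the table, a group mean under 4.50, the 30th percentile of all probe sets, was marked as near background. By that mark 18 of 43 members lay near background in all 6 groups, 7 in some groups and 18 in none. The T cell label rests on CD3D, CD3E, CD247 and CD2, which were above the mark in every group. The T cell genes CD6, LCK and LAT were above it too, but by their brightest probe sets did not follow them. In these probe sets CD6 and LAT were called in no contrast, and LCK only lower, at 4 h on day 4. Dimmer probe sets of LAT and LCK were called higher in some contrasts. The B cell markers CD79A, MS4A1 and BLK and the NK cell receptors NCR1, KLRD1 and KLRK1 were near background in all 6 groups, so the B and NK labels rest on dim signals, apart from the plasma cell gene JCHAIN.

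A pair of arrays touches the results. Replicate 1 of the day 11, 4 h group stood apart in the 3′ minus 5′ difference of the EF1A control, at -1.40 against -2.46 to -2.28 in the other 4 arrays of its group. For the GAPD control it was the lowest of its group (0.09 against 0.35 to 0.61), and for actin it lay within the range of the group (2.04 to 2.40), so the 3 controls disagree. Replicate 1 of the day 4, 24 h group lay near the 0 h arrays for many leukocyte genes. Results are given without these arrays where they moved. The steroidogenic genes, which mark luteal cells, had a mean log2 signal of 12.11 in the median day 11, 0 h array and 11.07 at 24 h, where all 8 were lower.

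**Figure D1:**
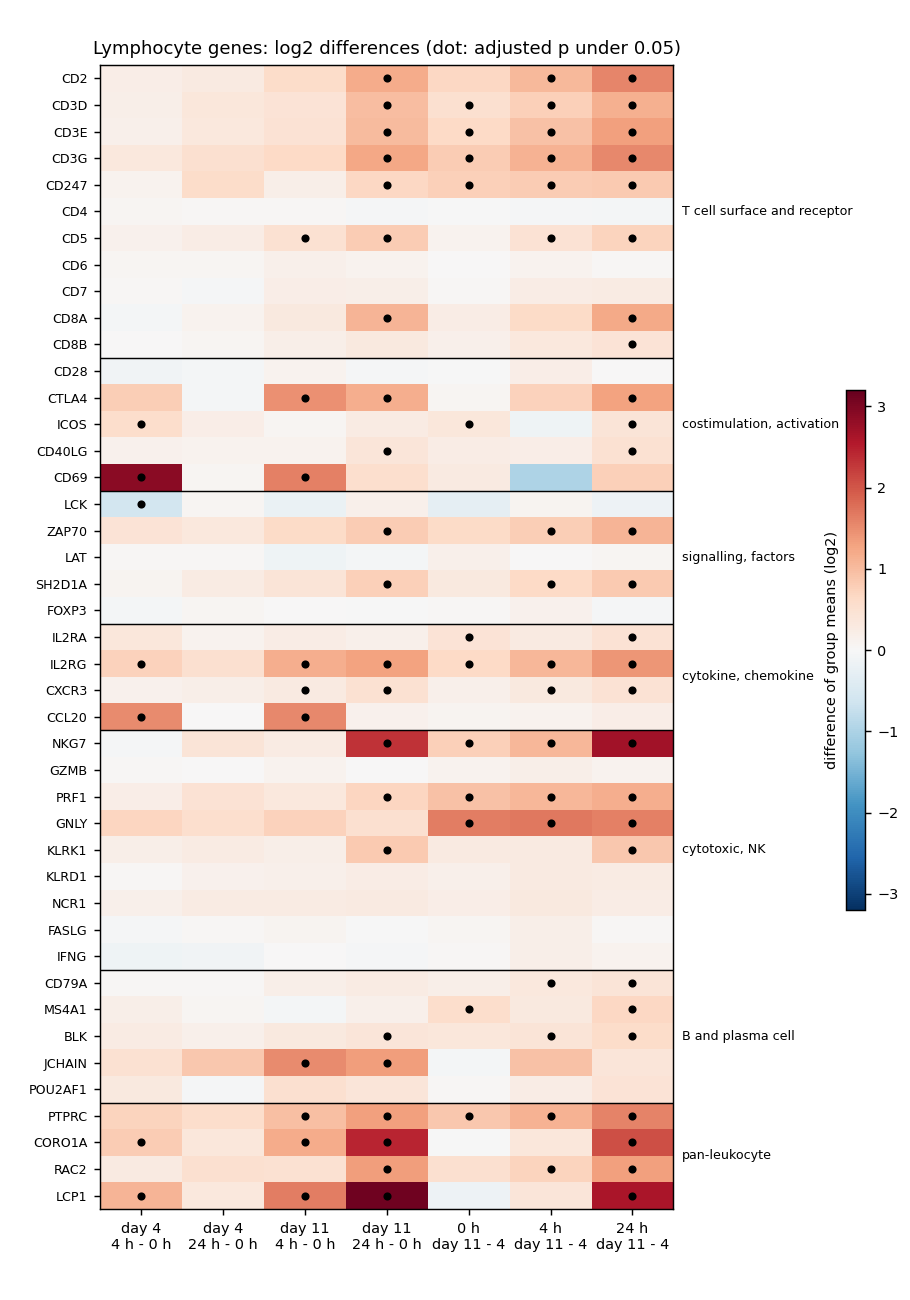
Differences of group means (log2, colour scale) for the 43 lymphocyte genes, in rows by gene group, and 7 comparisons, in columns; a dot marks an adjusted p under 0.05. At 24 h on day 11, 22 genes carry a dot and at 24 h on day 4 none does.

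At 24 h after PGF2α on day 11, 22 of 43 members were higher than at 0 h and none was lower, against 17.9% of all named genes called higher and 20% called lower. The median difference of the members was 0.49, beside -0.01 for all named genes. In 17 of 43 members the 5 arrays at 24 h all lay above the 5 arrays at 0 h, a pattern shown by 13.5% of named genes. On day 4 the same interval gave no called member in limma, with 3.03% of named genes called higher, 4.73% called lower and 4 members at an unadjusted p under 0.05. The median difference on day 4 was 0.15, and 1 member, IL2RG, did not overlap between the 2 groups (3.35% of named genes). Without replicate 1 of the day 4, 24 h group, 3 members were called higher there, CD247 (0.72, adjusted p 0.012), PTPRC (0.88, adjusted p 0.039) and RAC2 (0.68, adjusted p 0.034), and without replicate 5 of that group 1 was. Replicate 1 was singled out by its low values for such genes, and leaving it out raises their differences. The calls made without it therefore show how far the count depends on it, and are not separate evidence of a response on day 4. CD247 did not depend on that array alone. It was also called without replicate 5 (0.66, adjusted p 0.045), with array weights (0.56, adjusted p 0.037) and with the mean of all probe sets (0.58, adjusted p 0.046). In the main fit its adjusted p was 0.065.

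CD3E (Entrez Gene 281054), a signalling chain of the T cell receptor, read 4.83, 5.21, 5.33, 5.34 and 5.40 in the day 4, 0 h arrays, and 5.59, 5.81, 5.87, 5.90 and 6.09 in those of day 11. At 24 h it read 5.12, 5.63, 5.64, 5.68 and 5.69 on day 4, and 6.25, 6.57, 7.04, 7.04 and 7.45 on day 11. The mature gland was thus above the young gland with no overlap before treatment and again at 24 h, and on day 11 the 24 h arrays were all above the 0 h arrays. The day 11 difference at 24 h was 1.02 ± 0.21 (SE; 2.03-fold; limma adjusted p 0.00037). The day 4 difference was 0.33 ± 0.21 (adjusted p 0.46). The difference between these responses was not called (0.69 ± 0.30, adjusted p 0.10).

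The other chains of the receptor complex were also higher at 24 h on day 11. CD3G read 3.95, 3.98, 4.21, 4.44 and 4.55 at 0 h and 4.76, 5.13, 5.74, 5.79 and 5.85 at 24 h, a difference of 1.23 ± 0.29 (adjusted p 0.0013). CD3D (281053) went from 4.94, 4.94, 5.02, 5.07 and 5.14 to 5.72, 5.82, 5.99, 6.19 and 6.34, a difference of 0.99 ± 0.20 (adjusted p 0.00027). CD247, the zeta chain, read 5.95, 6.07, 6.11, 6.26 and 6.26 at 0 h and 6.36, 6.41, 6.64, 7.25 and 7.26 at 24 h, a difference of 0.65 ± 0.19 (adjusted p 0.0078). None of these 3 genes overlapped between 0 h and 24 h on day 11. For CD247 the 24 h difference on day 4 was nearly as large, 0.58, but was not called (limma adjusted p 0.065). The interaction at 24 h was not called for CD247 either.

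CD2 (497022), an adhesion receptor of T and NK cells, read 5.45, 5.62, 5.69, 5.83 and 6.25 at 0 h and 6.03, 6.76, 7.21, 7.31 and 7.48 at 24 h on day 11. The groups overlapped through 1 array at 24 h, and the difference was 1.19 ± 0.30 (2.28-fold, adjusted p 0.0030). All 3 probe sets of CD2 were called higher, by 0.61 to 1.19. CD5, which restrains receptor signalling, read 3.84, 3.91, 3.96, 4.05 and 4.21 at 0 h, 4.08, 4.39, 4.40, 4.73 and 4.79 at 4 h and 4.21, 4.87, 4.90, 4.95 and 5.15 at 24 h on day 11. Its mean went from 3.99 ± 0.14 (SD, n = 5) to 4.82 ± 0.35 at 24 h, a difference of 0.82 ± 0.15 (adjusted p 8.1e-05). The 4 h difference of 0.48 ± 0.15 (adjusted p 0.022) was lost without replicate 5 of 0 h or replicate 1 or 4 of 4 h (adjusted p 0.0067 to 0.077 over the alternatives).

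The co-receptors gave different results. CD8A (281060), the co-receptor of cytotoxic T cells, read 4.31, 4.80, 4.94, 4.94 and 5.12 at 0 h on day 11 and 5.30, 5.55, 5.89, 6.20 and 6.59 at 24 h. Every 24 h array was above every 0 h array, with a difference of 1.09 ± 0.27 (adjusted p 0.0022). CD4 (407098), the co-receptor of helper T cells, had group means between 4.39 and 4.50 in all 6 groups, and its difference at 24 h on day 11 was -0.03 ± 0.12 (adjusted p 0.91). Both of its probe sets were near background, so these values do not show whether CD4 RNA changed. CD8B, near background too, read 3.71, 3.84, 4.15, 4.18 and 4.45 at 24 h on day 4 and 4.25, 4.36, 4.36, 4.50 and 4.99 on day 11, which overlapped. This contrast was the only one called for it (0.43 ± 0.14, adjusted p 0.017), and the call was lost without replicate 1 or 5 of the day 4, 24 h group or replicate 3 of the day 11, 24 h group (adjusted p 0.0046 to 0.082 over the alternatives). CD6 and CD7 were not called in any contrast, with group means of 5.72 to 5.90 and 3.67 to 3.97.

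At 0 h the mature gland already stood above the young gland. Of 43 members, 12 were higher on day 11 and none was lower, where 17.9% of named genes were called higher and 26.5% lower. The 5 arrays of each day did not overlap in 12 members, all higher on day 11, against 12.3% of named genes in that direction. Without replicate 2 of either day, 7 members were called. For the T cell genes the differences were 0.63 ± 0.21 for CD3E (adjusted p 0.020), 0.51 ± 0.20 for CD3D (adjusted p 0.046), 0.82 ± 0.29 for CD3G (adjusted p 0.026) and 0.76 ± 0.19 for CD247 (adjusted p 0.0019). The CD247 call held in every alternative, whereas CD3E lost its call without replicate 2 of day 4 or replicate 3 of day 11 (adjusted p 0.0021 to 0.066 over the alternatives). CD3G lost it without replicate 2 or 5 of day 4 or replicate 2 or 3 of day 11 (0.0072 to 0.084), and CD3D without any 0 h array other than replicate 4 of day 4 (0.020 to 0.18). CD2 was 0.66 ± 0.30 higher (adjusted p 0.097) and CD8A 0.24 ± 0.27 (adjusted p 0.54), neither of which was called.

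The days were also compared after treatment. At 4 h 17 of 43 members were higher on day 11 and none lower, against 16.1% of named genes called higher and 26.7% lower, with no overlap in 5 members and in 9.77% of named genes. At 24 h the count was 27 of 43, against 18.8% of named genes called higher and 27.4% lower, with no overlap in 17 members and in 14.5% of named genes. CD3E differed by 0.95 ± 0.21 at 4 h (adjusted p 0.00088) and by 1.32 ± 0.21 at 24 h (adjusted p 1.1e-05). These 3 contrasts share no arrays, and 9 members were higher on day 11 at 0, 4 and 24 h alike: CD3D, CD3E, CD3G, CD247, IL2RG, NKG7, PRF1, GNLY and PTPRC. The share of named genes higher in all 3 was not counted, and the calls are those of the brightest probe sets. A dimmer probe set of CD3D was not called at 0 h (0.23, adjusted p 0.15) or 4 h (0.31, adjusted p 0.054). Neither dimmer probe set of PTPRC was called at 0 h (0.33 and 0.15), and the dimmest gave -0.01 at 24 h. At 4 h the contrast of the days in CD5 (0.47) was lost without replicate 4 of day 11 (adjusted p 0.0046 to 0.056 over the alternatives), and that in ZAP70 (0.79) without replicate 4 or 5 of day 4 or replicate 4 of day 11 (0.0053 to 0.074).

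**Figure D2:**
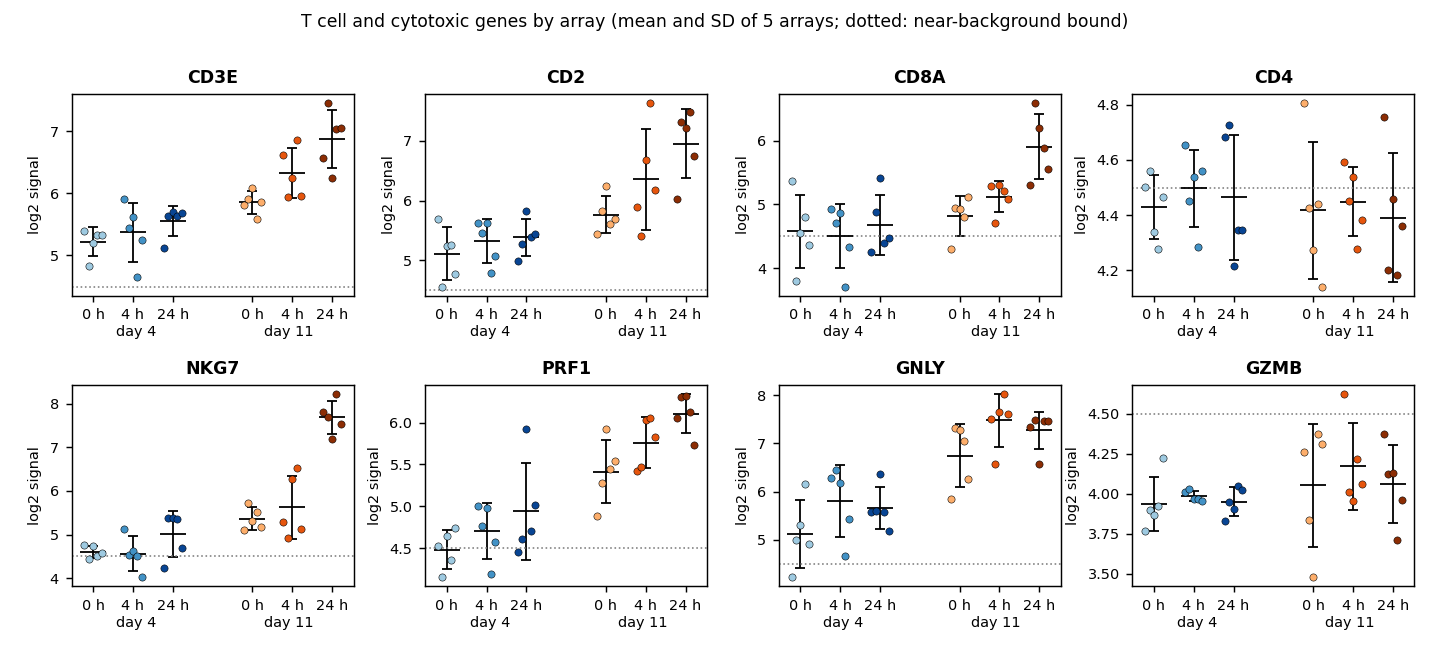
Log2 signal of 4 T cell genes (upper row) and 4 cytotoxic genes (lower row) in each array; points are heifers in order of replicate number, bars the mean and SD of 5, and the dotted line the near-background mark of 4.50. CD3E, CD2, CD8A, NKG7 and PRF1 are highest at 24 h on day 11, while CD4 and GZMB have means at or under the mark in every group.

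Among cytotoxic genes, NKG7 (513006), a membrane protein of cytotoxic granules, had the largest change. It read 4.44, 4.50, 4.58, 4.73 and 4.76 in the day 4, 0 h arrays and 4.24, 4.70, 5.36, 5.37 and 5.39 at 24 h. On day 11 it read 5.10, 5.17, 5.31, 5.52 and 5.73 at 0 h, 4.92, 5.13, 5.29, 6.28 and 6.52 at 4 h, and 7.19, 7.53, 7.69, 7.81 and 8.23 at 24 h. The 5 values at 24 h on day 11 lay above all other 25 arrays, and at 4 h the 5 arrays fell into 3 near the 0 h level and 2 above it. The day 11 difference at 24 h was 2.32 ± 0.26 (5.01-fold, adjusted p 5.7e-08), and it exceeded that of day 4 by 1.91 ± 0.37 (interaction, adjusted p 0.00030). At 0 h the days differed by 0.77 ± 0.26 (adjusted p 0.024), which was lost without replicate 2 or 4 of day 11 (adjusted p 0.00059 to 0.064 over the alternatives). A slightly dimmer probe set of NKG7 gave smaller values. It rose by 0.47 at 24 h on day 11 (adjusted p 0.024) and differed between the days by 0.59 at 24 h, also called, but its interaction of 0.33 was not called (adjusted p 0.34), nor were its differences between the days at 0 h (0.25, adjusted p 0.24) and 4 h (0.16, adjusted p 0.48). The larger response of NKG7 on day 11 thus rests on its brightest probe set.

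GNLY (404173), which encodes granulysin, read 4.23, 4.91, 5.01, 5.31 and 6.15 at 0 h on day 4 and 5.85, 6.26, 7.04, 7.27 and 7.33 on day 11. The days overlapped in 1 array each at 0 h, with a difference of 1.63 ± 0.35 (3.09-fold, adjusted p 0.00051). The difference of the days was 1.68 ± 0.35 at 4 h and 1.61 ± 0.35 at 24 h, while PGF2α gave no call on either day (0.52 to 0.73 ± 0.35, adjusted p 0.16 to 0.48). GNLY therefore differed by day of the cycle at each time, at about the same size.

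PRF1 (369025), the pore-forming perforin, read 4.15, 4.35, 4.52, 4.64 and 4.74 at 0 h on day 4 and 4.88, 5.28, 5.44, 5.54 and 5.93 on day 11, with no overlap. The difference was 0.93 ± 0.22 (adjusted p 0.0012). At 24 h on day 11 it read 5.73, 6.05, 6.13, 6.30 and 6.32, which overlapped the 0 h arrays. That difference was 0.69 ± 0.22 (adjusted p 0.016) and lost its call without replicate 1 of the day 11, 0 h group (adjusted p 0.0047 to 0.063 over the alternatives).

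The NK receptor KLRK1 (NKG2D) was near background but rose at 24 h on day 11, from 2.48, 2.70, 2.88, 2.92 and 2.93 to 3.13, 3.19, 3.60, 3.65 and 4.53. The groups did not overlap, and the difference was 0.84 ± 0.18 (adjusted p 0.00057). Granzyme B (GZMB), the NK receptors KLRD1 and NCR1, the death ligand FASLG and the effector cytokine IFNG were called in no contrast. Their group means lay in 3.94 to 4.17, 4.00 to 4.39, 3.44 to 3.95, 3.28 to 3.48 and 2.89 to 3.07, all under the mark. Other members under the mark in every group, such as KLRK1, were called. In all, 3 of 9 cytotoxic members were higher at 24 h on day 11 and 3 of 9 were higher on day 11 at 0 h, where 17.9% of named genes were called higher in each of these contrasts.

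At 4 h after PGF2α the members called were mostly activation, cytokine and pan-leukocyte genes. On day 4, 6 of 43 members were higher (3.29% of all named genes were) and 1 was lower (1.99% of named genes). On day 11, 10 of 43 were higher and none lower, against 10.1% of named genes called higher and 13.1% lower. Of the T cell surface and receptor genes, none of 11 was called on day 4 (limma; none at an unadjusted p under 0.05) and 1 of 11, CD5, on day 11. The 5 arrays of each group did not overlap in 4 members on day 4 and 7 on day 11, against 4.1% and 6.3% of named genes. On day 4 the count of called members was 2 without replicate 1 of 4 h and 4 without replicate 3 or 5 of 0 h or replicate 3 of 4 h. On day 11 it was 7 without replicate 1 of 4 h. The 4 h and 24 h comparisons of a day share their 0 h arrays.

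CD69 (281058), an early surface marker of activated lymphocytes, read 3.14, 3.21, 3.37, 3.43 and 3.61 at 0 h on day 4 and 3.61, 6.34, 6.48, 6.98 and 7.82 at 4 h. Thus 4 heifers were far above the 0 h range and 1, replicate 4, at its top. The difference was 2.89 ± 0.47 (7.42-fold, adjusted p 0.00024), and 3.55 without that heifer. At 24 h the day 4 arrays read 3.17, 3.26, 3.39, 3.54 and 3.67, close to the 0 h arrays.

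On day 11 CD69 went from 3.46, 3.54, 3.62, 3.69 and 3.95 at 0 h to 4.19, 4.45, 5.40, 5.46 and 6.83 at 4 h, with no overlap. The difference was 1.61 ± 0.47 (adjusted p 0.014). Without replicate 1 of 4 h it was 1.22 and no longer called (adjusted p 0.0065 to 0.065 over the alternatives). A difference between the days in this response was not called (interaction -1.28 ± 0.66, adjusted p 0.47). Without replicate 4 of the day 4, 4 h group the interaction was -1.93 (adjusted p 0.035).

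CTLA4 (281732), an inhibitory receptor that activated and regulatory T cells carry, read 3.77, 3.95, 4.03, 4.16 and 4.17 at 0 h on day 11, then 4.63, 5.01, 5.82, 5.90 and 6.02 at 4 h and 4.19, 5.00, 5.47, 5.47 and 5.73 at 24 h. Neither later group overlapped the 0 h arrays. The differences were 1.46 ± 0.30 at 4 h (2.75-fold, adjusted p 0.00076) and 1.15 ± 0.30 at 24 h (adjusted p 0.0035). A dimmer probe set gave 2.93 and 1.96, both called. On day 4 the 4 h difference of 0.79 ± 0.30 was not called (adjusted p 0.16), with values of 3.81, 4.48, 4.68, 4.70 and 5.99. The response at 24 h was larger on day 11 by 1.22 ± 0.42 (adjusted p 0.037).

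CCL20 (281666), a chemokine that draws lymphocytes bearing CCR6, rose for a short time on both days. It read 3.47, 3.70, 3.79, 4.02 and 4.03 at 0 h on day 4, 3.88, 4.69, 5.26, 6.06 and 6.68 at 4 h, and 3.62, 3.64, 3.79, 3.92 and 4.09 at 24 h. On day 11 it read 3.53, 3.86, 3.91, 3.96 and 4.21 at 0 h, 4.23, 4.91, 5.36, 5.49 and 7.12 at 4 h, and 3.96, 4.03, 4.04, 4.04 and 4.05 at 24 h. The 4 h differences were 1.51 ± 0.38 on day 4 (adjusted p 0.018) and 1.53 ± 0.38 on day 11 (adjusted p 0.0047), and the interaction was 0.02 ± 0.54. The day 4 call was lost without replicate 4 of 0 h or replicate 1 or 2 of 4 h (adjusted p 0.0013 to 0.075 over the alternatives). Without replicate 1 of 4 h the day 11 difference was 1.10, still called.

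ICOS, a costimulatory receptor, read 3.55, 3.96, 4.03, 4.07 and 4.19 at 0 h and 4.23, 4.38, 4.46, 4.73 and 4.84 at 4 h on day 4, with no overlap and a difference of 0.57 ± 0.14 (adjusted p 0.015). It was not called at 4 h on day 11 (0.06 ± 0.14). The day 4 call was lost without replicate 4 of 0 h or replicate 1 or 3 of 4 h (adjusted p 0.0025 to 0.22 over the alternatives), and a second, dimmer probe set gave -0.09. ICOS was also called between the days at 0 h (0.37 ± 0.14, adjusted p 0.039), a call lost without replicates 2, 3 or 4 of day 4 or 1, 2 or 4 of day 11 (0.019 to 0.17), and at 24 h (0.42 ± 0.14, adjusted p 0.019), lost without replicate 1 of day 4 or replicate 3 or 4 of day 11 (0.0085 to 0.066). CD40LG, the ligand through which T cells help B cells, was near background. It read 3.58, 3.63, 3.66, 3.78 and 4.01 at 0 h and 3.85, 4.03, 4.08, 4.17 and 4.39 at 24 h on day 11, which overlapped, with a difference of 0.38 ± 0.10 (adjusted p 0.0050). CD28 was near background in every array, at 2.62 to 3.13, and was not called.

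**Figure D3:**
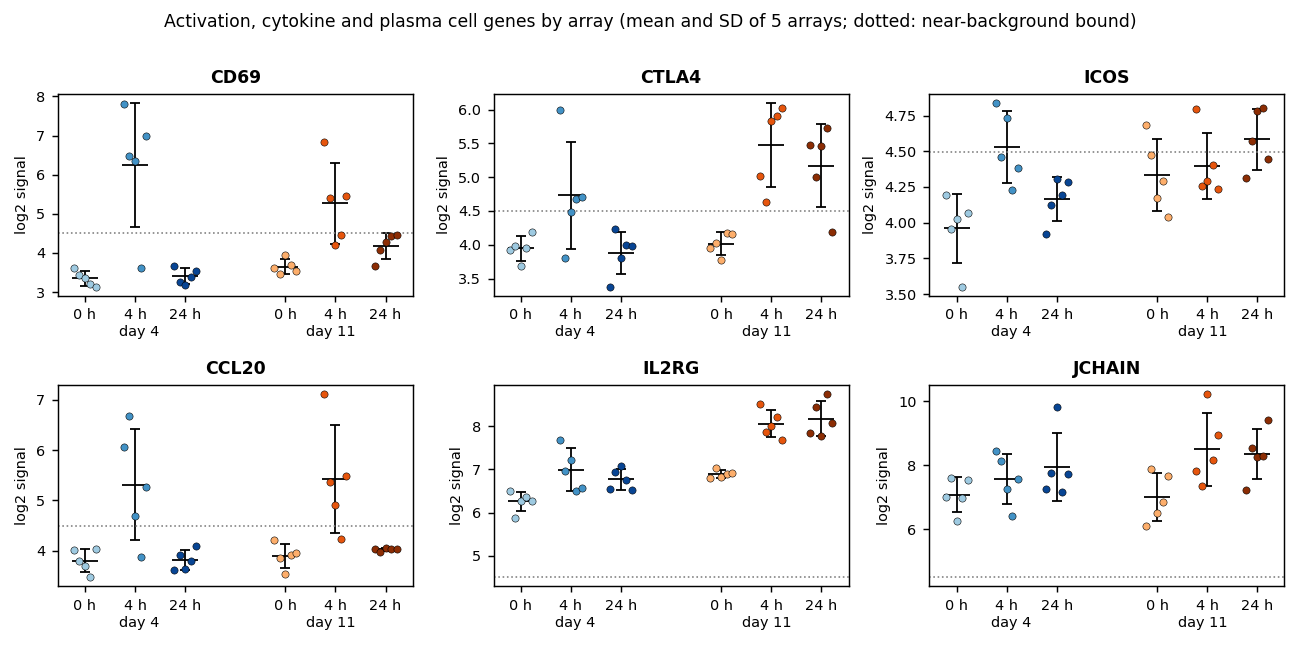
Log2 signal of 6 activation, cytokine and plasma cell genes in each array; points are heifers in order of replicate number, bars the mean and SD of 5, and the dotted line the near-background mark of 4.50. CD69 and CCL20 are high at 4 h on both days and near their 0 h range at 24 h, while CTLA4 and IL2RG stay high at 24 h on day 11.

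IL2RG (281862), the common gamma chain shared by receptors for several lymphocyte cytokines, rose at 4 h on both days and was still higher at 24 h on day 11. It read 5.88, 6.26, 6.28, 6.37 and 6.49 at 0 h and 6.50, 6.57, 6.97, 7.23 and 7.70 at 4 h on day 4. On day 11 it read 6.79, 6.82, 6.90, 6.93 and 7.03 at 0 h, 7.68, 7.88, 8.02, 8.22 and 8.52 at 4 h, and 7.79, 7.85, 8.07, 8.45 and 8.76 at 24 h. None of these 3 steps overlapped. The differences were 0.74 ± 0.20 on day 4 (adjusted p 0.026), 1.17 ± 0.20 at 4 h on day 11 (adjusted p 7.8e-05) and 1.29 ± 0.20 at 24 h on day 11 (adjusted p 6.8e-06). The day 4 call was lost without replicates 2, 3 or 5 of 0 h or 1 or 3 of 4 h (adjusted p 0.0086 to 0.12 over the alternatives).

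CXCR3, a chemokine receptor of effector T and NK cells, read 4.90, 5.02, 5.07, 5.30 and 5.30 at 0 h and 5.45, 5.55, 5.66, 5.67 and 5.70 at 24 h on day 11. It rose by 0.49 ± 0.10 with no overlap (adjusted p 0.00021). Its smaller difference at 4 h on day 11 (0.28 ± 0.10, adjusted p 0.038) was lost without replicates 3, 4 or 5 of 0 h or 1, 3 or 4 of 4 h (adjusted p 0.015 to 0.16 over the alternatives). IL2RA, the alpha chain of the interleukin 2 receptor, was near background and read 2.82, 2.98, 3.01, 3.12 and 3.14 on day 4 and 3.39, 3.39, 3.40, 3.51 and 3.55 on day 11 at 0 h. It was called only between the days, at 0 h (0.43 ± 0.14, adjusted p 0.016, lost without replicate 3 of day 4, with adjusted p 0.0023 to 0.050 over the alternatives) and at 24 h (0.46 ± 0.14, adjusted p 0.0098).

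Of the 5 signalling and transcription genes, 2 were higher at 24 h on day 11, where 17.9% of named genes were called higher. ZAP70, the kinase that binds the CD3 chains, rose by 0.82 ± 0.26 (adjusted p 0.015), from 4.75, 5.05, 5.13, 5.36 and 5.55 to 5.36, 5.49, 5.86, 6.33 and 6.91. The groups overlapped, and the call was lost without replicate 2 of 24 h (adjusted p 0.0054 to 0.073 over the alternatives). SH2D1A, an adaptor of T and NK cells, was near background and went from 3.32, 3.57, 3.58, 3.78 and 3.93 to 3.94, 4.00, 4.49, 4.73 and 4.90, with no overlap and a difference of 0.77 ± 0.18 (adjusted p 0.0011).

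LCK, the kinase that starts receptor signalling, went the other way at 4 h on day 4. It read 6.27, 6.50, 6.67, 6.71 and 6.72 at 0 h and 5.70, 5.86, 5.92, 6.14 and 6.32 at 4 h, which overlapped, with a difference of -0.59 ± 0.16 (adjusted p 0.028). It was the only member called lower in any of the 9 contrasts, and the call was lost without replicates 1, 3 or 5 of 0 h or 1, 4 or 5 of 4 h (adjusted p 0.0054 to 0.12 over the alternatives). Its other probe sets gave -0.51 and 0.15, so they disagreed. The dimmest of them was called higher on day 11 than on day 4 at 24 h (0.37, adjusted p 0.016). The brightest probe set of LAT, an adaptor of the same pathway, was not called in any contrast (group means 5.58 to 5.73). A second one of nearly the same brightness rose by 0.93 at 24 h on day 11 and was called. That probe set was also called at 4 h on day 11 (0.54) and between the days at 4 h (0.42) and 24 h (0.96). Its interaction at 24 h was called too (0.77, adjusted p 0.0029). FOXP3, the regulatory T cell factor, was near background in every group (3.70 to 3.84) and was not called.

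The B lineage was dim apart from JCHAIN. JCHAIN (280821), the joining chain that plasma cells add to secreted IgA and IgM, read 6.11, 6.50, 6.84, 7.66 and 7.89 at 0 h on day 11, 7.34, 7.81, 8.16, 8.96 and 10.24 at 4 h, and 7.21, 8.27, 8.27, 8.55 and 9.41 at 24 h. The heifers of a group spanned a wide range, and the groups overlapped. The differences were 1.50 ± 0.51 at 4 h (adjusted p 0.038) and 1.34 ± 0.51 at 24 h (adjusted p 0.047). The first was lost without replicates 1, 3 or 4 of 0 h or 3 or 5 of 4 h (adjusted p 0.016 to 0.15 over the alternatives), and the second without replicates 1, 3 or 4 of 0 h or 2, 3, 4 or 5 of 24 h (0.021 to 0.14). On day 4 JCHAIN was not called, with differences of 0.49 and 0.87 ± 0.51.

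The B cell antigen CD20 (MS4A1) read 3.63, 3.72, 3.74, 3.78 and 3.89 at 0 h on day 4 and 3.94, 4.01, 4.23, 4.45 and 4.91 on day 11. All values of day 11 were above those of day 4, though most were under the mark, and the difference was 0.56 ± 0.18 (adjusted p 0.020), lost without replicate 1 of day 11 (adjusted p 0.0041 to 0.089 over the alternatives). A second probe set gave 1.13, also called. CD79A, a chain of the B cell receptor, read 3.56, 3.84, 3.90, 3.93 and 3.94 on day 4 and 3.98, 4.23, 4.30, 4.31 and 4.48 on day 11 at 24 h. It was called only between the days, at 4 h (0.34 ± 0.13, adjusted p 0.039) and 24 h (0.42 ± 0.13, adjusted p 0.0085). Its call at 4 h was lost without replicates 2, 3 or 4 of day 4 or 1 or 5 of day 11 (adjusted p 0.020 to 0.13 over the alternatives).

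BLK, a kinase of B cells, was near background and read 4.04, 4.07, 4.10, 4.11 and 4.21 at 0 h and 4.31, 4.36, 4.39, 4.48 and 4.90 at 24 h on day 11. The groups did not overlap and differed by 0.38 ± 0.15 (adjusted p 0.048), a call lost without any 1 of the 5 arrays of 0 h or replicates 1, 4 and 5 of 24 h (adjusted p 0.024 to 0.18 over the alternatives). It was also called between the days at 4 h (0.41 ± 0.15), lost without replicate 2 or 4 of day 4 or replicate 1 of day 11 (0.016 to 0.15), and at 24 h (0.59 ± 0.15, adjusted p 0.0018). POU2AF1, a transcriptional coactivator of B cells, was not called.

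The 4 pan-leukocyte genes, which T, B and NK cells share with macrophages and granulocytes, were all higher at 24 h on day 11 with no overlap. Of named genes, 17.9% were called higher there and 13.5% were higher with no overlap. LCP1 (540990), an actin-bundling protein, read 6.40, 6.55, 6.68, 6.75 and 6.90 at 0 h, 7.82, 7.85, 8.37, 8.70 and 8.77 at 4 h, and 9.38, 9.57, 9.69, 9.89 and 10.30 at 24 h on day 11. It rose in steps with no overlap between the 3 times. The difference at 24 h was 3.11 ± 0.24 (8.64-fold, adjusted p 6.7e-11), the largest of any member. On day 4 it was higher at 4 h (1.09 ± 0.24, adjusted p 0.0067) but not called at 24 h (0.33 ± 0.24, adjusted p 0.56).

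CORO1A (282196), an actin regulator, read 6.81, 6.99, 7.08, 7.28 and 7.37 at 0 h and 9.19, 9.45, 9.48, 9.54 and 10.03 at 24 h on day 11, a difference of 2.43 ± 0.24 (5.39-fold, adjusted p 5.4e-09). At 4 h it was higher by 1.19 ± 0.24 on day 11 (adjusted p 0.00066) and by 0.82 ± 0.24 on day 4 (adjusted p 0.046). The day 4 call was lost without replicates 2, 3 or 5 of 0 h or 1, 2 or 3 of 4 h (adjusted p 0.018 to 0.18 over the alternatives). RAC2, a GTPase of blood cells, read 7.88, 8.01, 8.03, 8.15 and 8.17 at 0 h and 9.06, 9.18, 9.44, 9.59 and 9.60 at 24 h on day 11, a difference of 1.33 ± 0.21 (adjusted p 1.1e-05).

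PTPRC (407152), the leukocyte antigen CD45, read 6.99, 7.25, 7.29, 7.46 and 7.53 at 0 h and 8.22, 8.44, 8.68, 8.76 and 9.0 at 24 h on day 11, a difference of 1.32 ± 0.30 (adjusted p 0.0010). The dimmest of its 3 probe sets was not called (0.25). At 4 h on day 11 PTPRC was higher by 0.97 ± 0.30 with no overlap (adjusted p 0.021), a call lost without replicate 1 of 0 h or replicate 4 of 4 h (adjusted p 0.0030 to 0.062 over the alternatives).

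**Figure D4:**
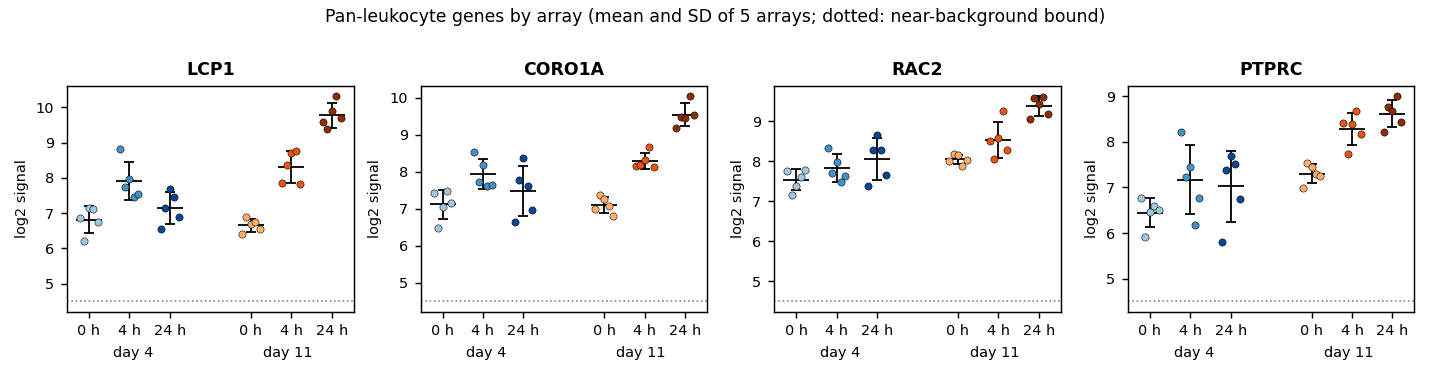
Log2 signal of the 4 pan-leukocyte genes in each array; points are heifers in order of replicate number, bars the mean and SD of 5, and the dotted line the near-background mark of 4.50. LCP1 and CORO1A start level on both days at 0 h and climb at 4 h and 24 h on day 11.

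At 0 h LCP1 and CORO1A were not called between the days (-0.16 and -0.01, both ± 0.24), whereas PTPRC was higher on day 11 (0.85 ± 0.30, adjusted p 0.027). The PTPRC call at 0 h was lost without replicate 2 of day 4 or replicate 2 or 3 of day 11 (adjusted p 0.0011 to 0.081 over the alternatives). At 24 h on day 11 LCP1 exceeded its day 4 response by 2.78 ± 0.34 (interaction, adjusted p 6.4e-07) and CORO1A by 2.07 ± 0.34 (adjusted p 3.8e-05).

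The responses of the 2 days differed in 7 of 43 members at 24 h, all larger on day 11: LCP1, CORO1A, NKG7, CTLA4, RAC2 (0.81), IL2RG (0.78) and CD5 (0.59). That share is close to the 14.8% of named genes called in that direction (15% in the other). LCP1, CORO1A and NKG7 kept their calls in every alternative. Without replicate 1 of the day 4, 24 h group 3 members were called, and CTLA4, RAC2, IL2RG and CD5 each lost the call in 10 or more alternatives (adjusted p 0.0047 to 0.10 over them). At 4 h the interaction gave no called member in limma, with 0.939% of named genes called higher and 0.459% lower, and 1 member, CD69, at an unadjusted p under 0.05.

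Markers of other cells were measured in the same comparisons, and their counts stand beside 17.9% of named genes called higher and 20% lower at 24 h on day 11. Of 12 measured macrophage markers, 7 were higher at 24 h on day 11 and none was lower, led by TYROBP (2.61), CD14 (2.60), MSR1 (2.27) and FCER1G (2.10). The log2 of their summed signal ran from 11.57 to 12.43 at 0 h and from 13.24 to 13.95 at 24 h on day 11, and from 10.56 to 10.73 at 0 h on day 4. Between the days at 0 h, 6 of 12 were higher on day 11 (17.9% of named genes were), led by C1QB (2.49) and C1QC (2.42). Of 13 measured neutrophil and eosinophil markers, 3 were higher at 24 h on day 11, S100A12 (5.97), S100A8 (2.32) and S100A9 (1.68), a share near that of all named genes. At 4 h on day 11, 4 of 12 macrophage and 4 of 13 neutrophil and eosinophil markers were higher (10.1% of named genes were), and on day 4 1 and 2 were (3.29%). Of 3 mast cell markers, FCER1A (2.08) and KIT (0.51) were higher at 24 h on day 11. Of 7 endothelial markers, 3 were higher at 4 h on each day, 4 were higher on day 11 at 0 h, and 2 were lower at 24 h on day 11, TIE1 (-0.61) and TEK (-0.46). None of 4 red blood cell markers was called after PGF2α on either day (limma; 0 at an unadjusted p under 0.05). The part of these cells in the pan-leukocyte and other shared genes was not tested.

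A further list held other genes of T cell signalling, transcription and surface receptors, of which 15 were measured. At 24 h on day 11, 11 of them were higher and 1 was lower, against 17.9% and 20% of named genes. The largest were the adaptors VAV1 (1.14) and LCP2 (1.05), the transcription factor LEF1 (1.01) and the receptor CD96 (1.00), while STAT4 was lower (-0.74). On day 4 none of the 15 was called at 24 h (limma, with 3 at an unadjusted p under 0.05), where 3.03% of named genes were called higher and 4.73% lower. At 4 h 3 were higher on day 4 (3.29% of named genes were), TCF7 (0.79), NFATC3 (0.64) and FYN (0.63). On day 11 6 of the 15 were higher at 4 h and none was lower, against 10.1% of named genes called higher and 13.1% lower.

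Of 25 measured chemokines, cytokines and receptors that guide lymphocytes, 12 were higher at 24 h on day 11 and 1, CCL25, was lower (-1.15), against 17.9% and 20% of named genes. CCL4 and CCL3, which attract T cells and macrophages, differed by 2.23 and 1.85, XCL1, which attracts dendritic cells, by 2.06, and the receptor CXCR4 by 1.56. At 4 h CCL4 was higher by 4.64 on day 4 and 4.08 on day 11, while CXCL10, a ligand of CXCR3, was called on day 11 only (2.12, against 0.92 on day 4; interaction 1.20, not called). CCL5 was higher at 4 h on both days (0.91 and 1.77).

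Within groups, heifers with more CD3E signal had more of several other members, both T cell and pan-leukocyte genes. Deviations from the group mean were correlated with those of CD3E over the 30 arrays for the 19 other members whose mean was above the near-background mark, with two-sided permutation tests within groups and adjustment over the 19. Of these, 12 passed by Pearson's r and 10 by Spearman's rho. The highest were IL2RG (r 0.79, rho 0.78, adjusted permutation p 0.00063 and 0.00095), PTPRC (r 0.72, rho 0.72, adjusted p 0.00029 and 0.00076) and CD3D (r 0.70, rho 0.65, adjusted p 0.00076 and 0.0048). Without the 2 arrays farthest from the median, these r were 0.74, 0.74 and 0.80.

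**Figure D5:**
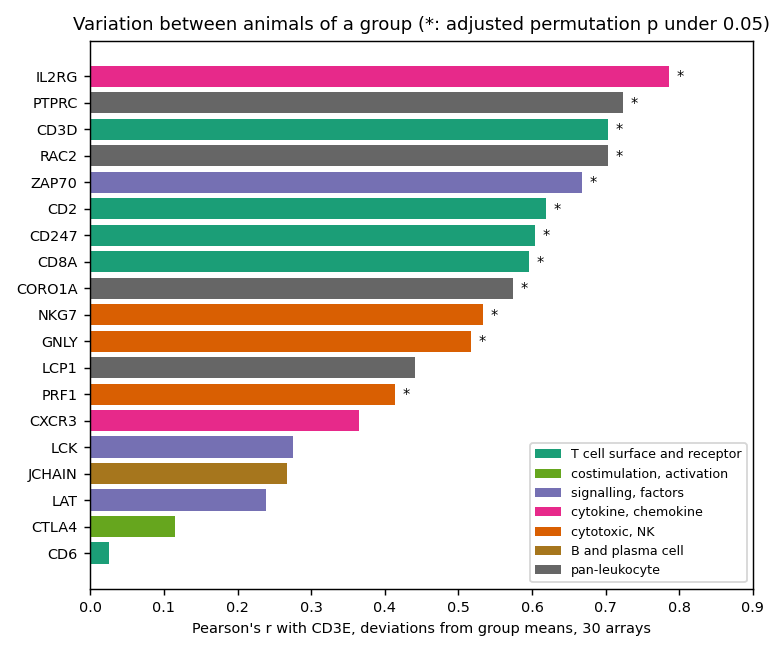
Pearson's r of each of 19 members with CD3E, over deviations of 30 arrays from their group means; colours give the gene group and stars an adjusted permutation p under 0.05. IL2RG is highest at 0.79, and CTLA4 and CD6 are lowest at 0.11 and 0.03.

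RAC2 (r 0.70), ZAP70 (0.67), CD2 (0.62), CD247 (0.60), CD8A (0.60) and CORO1A (0.57) followed. The cytotoxic genes were lower, with NKG7 at 0.53, GNLY at 0.52 and PRF1 at 0.41. Among the members that passed by Pearson's r, NKG7 and PRF1 were the 2 that did not pass by Spearman's rho (adjusted permutation p 0.053 and 0.051). GNLY rested on the 2 farthest arrays, replicate 4 of day 4, 4 h and replicate 3 of day 11, 24 h, and fell to 0.35 without them (adjusted permutation p 0.084). LCP1 did not pass (0.44, adjusted permutation p 0.062), nor did CXCR3 (0.36), LCK (0.28), JCHAIN (0.27), LAT (0.24), CTLA4 (0.11) or CD6 (0.03). Without the 2 farthest arrays LCP1 (0.46) and LCK (0.45) passed, each at an adjusted permutation p of 0.048. Over all 7772 named genes above the mark the median r with CD3E was -0.04, and 1.84% had an r of 0.5 or more, as 11 of the 19 members did. All points share an array, so that differences in tissue sampling enter every gene together.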

How the data were processed

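For each array the authors deposited log2 values, made with RMA (background correction, normalization between arrays and a summary of each probe set's probes) per the submitters' processing notes, which give no version. No further normalization was applied. Of 24128 probe sets 112 controls were left out. The platform annotation gave 13292 probe sets 1 symbol, 86 several and 10638 none. Of the members, 13 had several probe sets.

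One limma 3.58.1 fit (R 4.3.3) of all 30 arrays had a mean for each of 6 groups and no covariate, as the design text describes a completely random design, and 9 contrasts were taken from it (28.2 degrees of freedom after moderation). The fit was tested on simulated data. P-values measure the spread between heifers, 1 array each. The number of arrays limits the precision.

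The near-background mark was to be the 90th percentile of 51 measured genes of other organs. That gave 9.04, since several of those genes were bright (POMC 13.15, PRL 11.07), and put 40 of 43 members under it in every group. The stated alternative, the 30th percentile of all probe sets (4.50), is used, also for the correlations, a choice made after seeing the data.

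Every measured member is accounted for. Per-array values were given for called members, up to 4 called genes with the largest change were named from each other list, and a fixed panel (CD3E, CD3D, CD2, CD4, CD8A, CD79A, MS4A1, PTPRC, CCL20, IFNG) whatever it showed. The dimmer probe sets of LAT, the dimmest of LCK at 24 h, STAT4, CCL25, CXCL10 and CCL5 were named after their values were seen. Members and lists were chosen with earlier results of these data known. Alternatives covered normalization, dim probe sets, variance moderation, array weights, a replicate block, the arrays fitted, the threshold, the choice of probe set and each array left out. Arrays with the same number deviated together (r over 0.1) in 24 of 75 pairs, and numbers were not taken as pairs in the main fit. The median correlation of deviations was 0.049 for the same number and -0.015 for other numbers. Of 30 arrays, 19 correlated best with their own number. Arrays of the same number were thus weakly more alike than others, which the main fit leaves out and the replicate block takes in. The cause was not tested.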

Additional observations from a re-analysis of the deposited data

Results flagged for a closer look

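The response at 24 h was larger on day 11 than on day 4 by the interaction test in 7 members: LCP1 by 2.78, CORO1A by 2.07, NKG7 by 1.91, CTLA4 by 1.22, RAC2 by 0.81, IL2RG by 0.78 and CD5 by 0.59 (log2). The 7 of 43 are close to the 14.8% of all named genes called in that direction. CTLA4, RAC2, IL2RG and CD5 lost the call in alternatives that left out single arrays, and a second probe set of NKG7 gave 0.33, not called.

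In 13 of 258 groups of 5 arrays, 1 array lay far from the other 4 by Dixon's criterion, 5.04% of groups, and chance gives about 5%. In the day 4, 24 h group replicate 1 was lowest for CD3E at 5.12 and for CD79A at 3.56, and replicate 3 was highest for JCHAIN at 9.81 and for POU2AF1 at 4.02 and lowest for CD28 at 2.64. Replicate 1 of the day 4, 4 h group was highest for LAT at 5.85, and replicate 1 of the day 11, 4 h group was highest for BLK at 5.12. At 24 h on day 11, CD28 was lowest in replicate 5 at 2.63, CCL20 lowest in replicate 2 at 3.96, GNLY lowest in replicate 3 at 6.58 and BLK highest in replicate 4 at 4.90. At 0 h on day 11, FASLG was highest in replicate 5 at 3.70 and IFNG in replicate 3 at 3.21.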

How the results depend on the processing

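Of 102 called differences of single members, 68 passed in every alternative, 34 were lost in at least 1 and none reversed. With each array left out in turn, the members called ranged from 2 to 6 (4 h, day 4), 0 to 3 (24 h, day 4), 7 to 14 (4 h, day 11), 19 to 22 (24 h, day 11), 7 to 11, 15 to 20 and 25 to 27 (day 11 against day 4 at 0, 4 and 24 h), and 0 to 1 and 3 to 8 (interactions at 4 and 24 h). The lowest counts came without replicate 1 of 4 h at 4 h on day 4, without replicate 2 of either day at 0 h, and at the 24 h interaction without replicates 4 or 5 of day 4, 0 h, 1 of day 4, 24 h, 3 of day 11, 0 h or 4 of day 11, 24 h. Leaving out the dimmest 30% of probe sets, and with them dim members, gave 4 (4 h, day 4) and 16 (24 h, between the days). At an adjusted p under 0.01 the counts were 2 (4 h, day 4), 5 (4 h, day 11), 3 (0 h, between the days) and 3 (24 h interaction). Array weights gave 1 at 24 h on day 4 and 6 at 4 h on day 11, and the mean of all probe sets gave 1 at 24 h on day 4, CD247 both times; the cause was not tested. The replicate block, which adds the replicate number to the fit, gave 7, 0, 10, 22, 12, 17 and 27 members in the 7 contrasts of groups and 0 and 5 in the interactions; 19 of 30 arrays correlated best with their own number. Members near background numbered 40 by the organ genes and 18 by the percentile of all probe sets. Correlations with CD3E passed in 13 members without the 2 farthest arrays. The 18 members near background in every group have differences that dim signals may understate.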

Other observations

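JCHAIN and POU2AF1, both of the plasma cell and B lineage, were highest in the same heifer in several groups, a pattern singled out after the values were seen and not tested. In the day 4, 24 h group replicate 3 was highest for both (JCHAIN 9.81, the other 4 at 7.18 to 7.76; POU2AF1 4.02, the others at 3.16 to 3.37). At 4 h on day 11 replicate 3 was highest for both (10.24 and 4.83), and at 24 h on day 11 replicate 5 (9.41 and 4.65), which was also highest for MS4A1 at 5.32. At 4 h on day 4 replicate 1 was highest for both (8.44 and 4.09) and replicate 4 lowest for both (6.43 and 3.24). POU2AF1 was near background by its group means throughout.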
